A study of Mus musculus with 24 samples.

Results

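Antisense transcripts that mouse nomenclature names after the gene on the opposite strand, as the symbol of that sense gene followed by os, were followed through XR-seq data of kidney and liver. Members were the rows of the deposited gene tables whose single symbol ends in os, or in os and digits, and whose text before os is the symbol of another row in the same table. This rule found 155 rows among 24203 rows with 1 symbol. They carry 152 distinct symbols, because Vax2os is listed in 3 rows and Uckl1os in 2, and they pair with 145 sense genes. A further 23 os-named rows had no row for the sense gene and were not members. RefSeq lists 142 of the 155 as lncRNA, 4 as antisense RNA and 1 as a transcribed pseudogene. The other 8 are listed as protein coding, among them Ccpg1os, Cebpzos, Crxos, Slc7a6os, Toporsos, Trpc5os and Wdr83os.

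The 24 libraries came from wild-type C57BL/6 female mice of 6 months under a cycle of 12 h light and 12 h dark. All of the mice had received cisplatin into the peritoneum at 10 mg/kg, 2 h before they were killed, and the tables used here hold no untreated mice. Kidney and liver were each sampled at zeitgeber times (ZT) 0, 4, 8, 12, 16 and 20, where ZT0 is lights on, with 2 libraries per tissue and time. Nothing in the labels tells whether both libraries of a time stem from different animals. The p-values below therefore rest on the spread between libraries, part of which may be technical.

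XR-seq sequences the short single-stranded oligomers that nucleotide excision repair cuts out around a DNA lesion, here a platinum adduct. When RNA polymerase stalls at a lesion in its template, transcription-coupled repair removes that lesion from the transcribed strand (TS), while lesions in the non-transcribed strand (NTS) wait for global repair. A surplus of TS over NTS reads is therefore the usual mark of a transcribed gene. Many antisense transcripts start close to the promoter of their sense gene and run away from it, and others run through the body of the sense gene. Where the rows of a pair overlap, a TS read of the antisense row is at the same time an NTS read of the sense gene, and an NTS read of the antisense row is a TS read of the sense gene.

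Both rows lay on opposite strands of 1 chromosome in all 155 pairs. The antisense row lay wholly inside the sense gene in 50 pairs and around it in 4. It overlapped the start of the sense gene in 39 pairs (head-to-head) and the end in 15 pairs (tail-to-tail). In 38 pairs the rows were apart and pointed away from each other (divergent), 27 of them with starts within 500 bases, and in 9 pairs they were apart and pointed towards each other (convergent). The members were short, with a median span of 7907 bases (110 to 147599), against 32209 bases for the sense genes. In all, 108 members overlapped their sense gene, 110 overlapped some opposite-strand row, and 45 overlapped none. A row on the same strand overlapped 15 members.

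The 300 bases from 250 before to 50 after a start are shown for 4 of the divergent pairs described below. They are RefSeq windows (GRCm38.p6), each on the strand of the named gene. Capitals mark CCAAT, or ATTGG where it lies on the other strand, and TATAAA. The first window is that of Emx2 (chr19:59458440-59458739, plus strand), and the start of Emx2os lies within it, 55 bases from that of Emx2. The windows of Lhx1os (chr11:84525410-84525709, plus strand) and Map2k3os (chr11:60931818-60932117, minus strand) also hold the starts of their sense genes, at 126 and 190 bases. That of Ctcflos (chr2:173124499-173124798, plus strand) does not, since Ctcfl starts 5224 bases away.
Emx2: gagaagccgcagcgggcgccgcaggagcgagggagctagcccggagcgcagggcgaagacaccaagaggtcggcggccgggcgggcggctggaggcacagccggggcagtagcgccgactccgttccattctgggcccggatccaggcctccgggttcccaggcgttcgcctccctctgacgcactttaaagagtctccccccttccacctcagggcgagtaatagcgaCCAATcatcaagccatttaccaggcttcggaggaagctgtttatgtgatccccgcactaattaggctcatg
Lhx1os: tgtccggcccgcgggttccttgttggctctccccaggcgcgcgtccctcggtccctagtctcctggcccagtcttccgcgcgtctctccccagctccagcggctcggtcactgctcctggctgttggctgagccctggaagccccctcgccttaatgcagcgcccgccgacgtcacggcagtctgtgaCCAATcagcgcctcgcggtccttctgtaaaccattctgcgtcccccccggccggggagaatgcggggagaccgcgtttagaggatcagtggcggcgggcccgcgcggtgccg
Map2k3os: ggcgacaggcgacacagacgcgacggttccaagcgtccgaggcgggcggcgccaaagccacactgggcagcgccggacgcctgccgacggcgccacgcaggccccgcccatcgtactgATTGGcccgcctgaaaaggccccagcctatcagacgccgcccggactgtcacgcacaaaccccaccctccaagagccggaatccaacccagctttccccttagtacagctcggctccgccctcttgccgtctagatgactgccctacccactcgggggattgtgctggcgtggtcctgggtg
Ctcflos: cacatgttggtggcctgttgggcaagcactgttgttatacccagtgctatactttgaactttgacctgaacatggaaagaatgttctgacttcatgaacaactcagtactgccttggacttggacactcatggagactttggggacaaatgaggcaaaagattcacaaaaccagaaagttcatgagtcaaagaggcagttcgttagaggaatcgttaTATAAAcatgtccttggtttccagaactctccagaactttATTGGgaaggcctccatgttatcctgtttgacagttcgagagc
The windows of Emx2, Lhx1os and Map2k3os hold 26, 33 and 30 CpG and 1 CCAAT each. The window of Ctcflos holds 3 CpG, 1 CCAAT and 1 TATAAA. Not shown are the windows of the divergent Cep83os, Appbp2os, Dio3os and Wt1os, which hold 46, 45, 53 and 16 CpG and 0 CCAAT each. Across all 32851 RefSeq windows of this length the median was 7 CpG, 37.4% held CCAAT and 13.6% held TATAAA on either strand. The 131 windows of 123 members had a median of 8 CpG, and 37.4% held CCAAT and 9.16% TATAAA.

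Kidney libraries had 8718055 to 33716763 reads in total, and liver libraries 12917058 to 28244795. Members took 0.105% to 0.125% of the TS reads of kidney libraries and 0.0829% to 0.107% of those of liver libraries, so that many members had few reads. A mean of at least 20 reads per library, TS and NTS together, was reached by 129 members in kidney and 109 in liver, and 26 remained below it in both tissues (among them Nphs1os, Il1bos and Fmr1os). All 8 kidney tubule markers had more TS reads in kidney and all 8 hepatocyte markers more in liver. A pair of liver libraries stood apart. The first library of ZT0 had a median correlation of 0.969 with the other liver libraries, against 0.985 to 0.994 for the other 23 libraries with those of their tissue, and the lowest summed hepatocyte marker level (14.3 RPKM, against a liver median of 19). The first library of liver ZT4 had the highest summed kidney tubule marker level of the liver libraries (0.935 RPKM, against a liver median of 0.52 and a kidney median of 10.5). Levels below are the deposited RPKM, reads divided by the length of the row and by the total of the library, with 12 libraries per tissue.

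In kidney 139 members passed the filter on low counts, of which 44 had more TS than NTS reads and 66 fewer TS than NTS reads by edgeR's quasi-likelihood test (adjusted p under 0.05). Over all 19770 rows tested in kidney, 89.5% passed this test, 78.4% with more TS reads and 11.1% with fewer. The median log2 ratio of TS over NTS was -0.19 for the members and 2.32 for all rows. Liver gave 46 members with more and 57 with fewer TS reads of 131 tested, with a median of -0.06, against 77.9% with more and 11.3% with fewer of all rows (89.2% in either direction) and a median of 2.51. Their sense genes followed the rest of the table: 114 of 144 had more TS reads in kidney and 101 of 138 in liver, with medians of 2.08 and 2.02. The ratio compares strands of the same library and the same row on 1 scale. When each strand was scaled on its own instead, the median of all rows moved to 0.06 in kidney and 0.17 in liver, and ratios became relative to the typical row: 14 members were then higher and 128 lower of 145 in kidney, and 15 were higher and 126 lower of 142 in liver. Members with a moderate surplus of TS reads, such as Fam120aos and Stamos, thus lay below the typical gene.

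**Figure D1:**
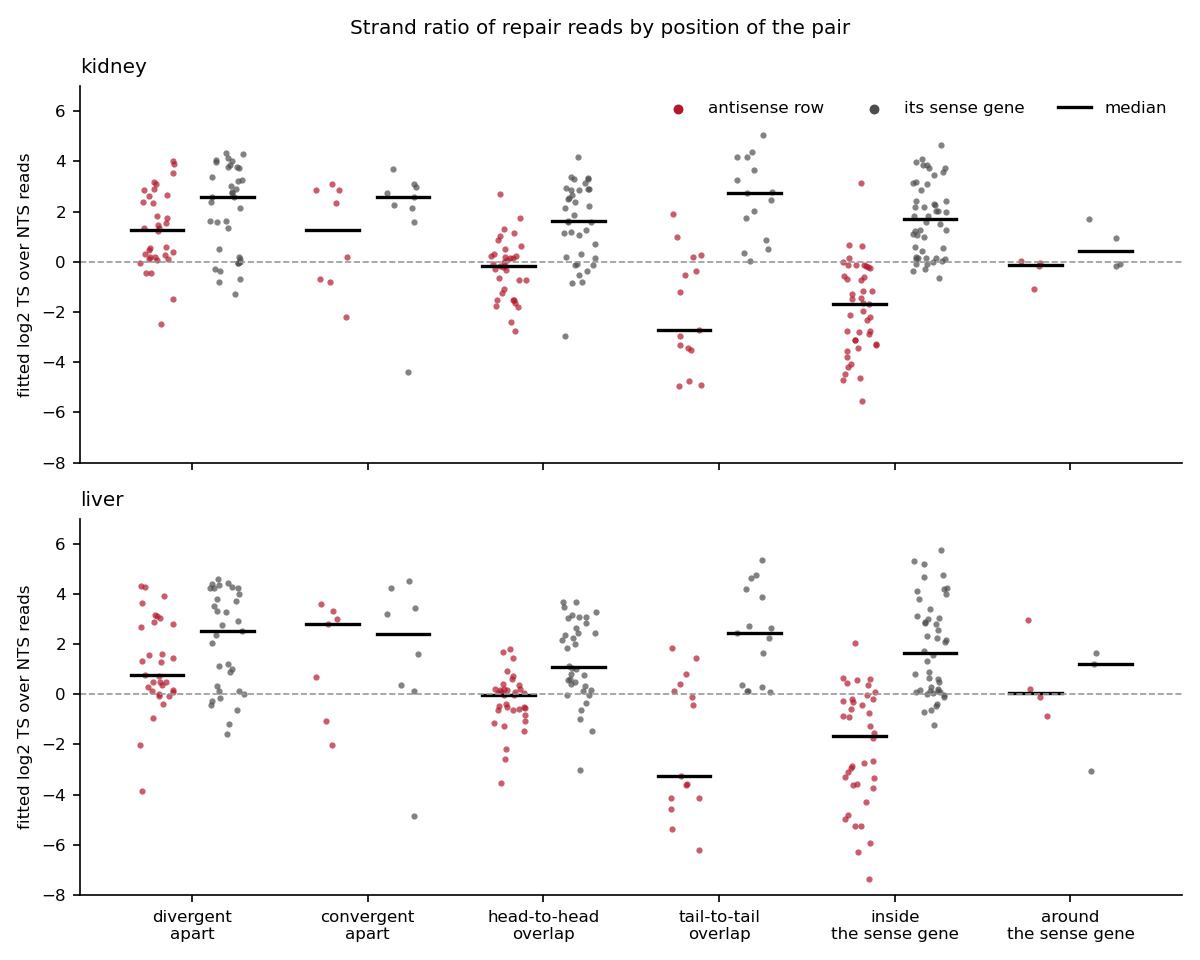
Fitted log2 ratio of TS over NTS reads (vertical axis) of the antisense rows (red) and their sense genes (grey) by position of the pair, in kidney (top) and liver (bottom); each point is 1 row that passed the count filter and bars are medians. Antisense rows apart from the sense gene have medians above 0 in both tissues, and those inside the sense gene or overlapping its end have medians of -1.68 and -2.74 in kidney.

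Members that shared no stretch with an opposite-strand row had a positive median ratio. Of the 40 tested in kidney, 25 had more TS reads and 6 fewer (median log2 ratio 1.36), and of the 37 in liver 26 had more and 4 fewer (1.27). Of all rows tested 78.4% in kidney and 77.9% in liver had more TS reads, and of rows that overlapped no other row on either strand 79.8% and 79.7%, with medians of 2.45 and 2.68. The largest ratio in kidney was that of Cep83os (chr10:94673493-94688613, minus strand), divergent from Cep83, which encodes a protein of the centriole's distal appendages. Its TS level in kidney ranged from 0.994 to 1.26 RPKM with a median of 1.13, and its NTS level from 0.0303 to 0.113 with a median of 0.0626. The strands did not overlap in any library, and the fitted log2 ratio was 4.01 ± 0.10 (SE, n = 12 libraries, adjusted p = 1.52e-22). The ratio of Cep83 itself was 3.76 ± 0.10.

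Appbp2os (chr11:85235166-85238304, plus strand) starts 46 bases from Appbp2, which encodes an adaptor of a ubiquitin ligase. It ranged from 1.79 to 2.30 RPKM on the TS and from 0.0598 to 0.256 on the NTS in kidney, with medians of 2.01 and 0.122. In liver it ranged from 1.70 to 2.74 on the TS and from 0.0282 to 0.197 on the NTS, with medians of 2.19 and 0.112. TS stood above NTS by a wide gap in both tissues, with log2 ratios of 3.91 ± 0.12 in kidney and 4.33 ± 0.14 in liver (SE, n = 12 each, adjusted p = 2.08e-20 and 7.42e-21). The TS level of this antisense row was close to that of Appbp2, whose median was 2.06 RPKM in kidney and 1.79 in liver. Map2k3os (chr11:60920941-60931867, minus strand) lies beside Map2k3, a kinase of the stress-activated MAP kinase cascade. Its log2 ratio was 3.52 ± 0.09 in kidney and 4.28 ± 0.09 in liver, from medians of 2.62 and 2.03 RPKM on the TS and 0.234 and 0.102 on the NTS. No TS value of Map2k3os came near an NTS value, the lowest TS level being 1.46 and the highest NTS level 0.341 RPKM over the 24 libraries.

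Several antisense rows had a larger surplus of TS reads than the gene they are named after. Dio3os (chr12:110275385-110278068, minus strand) is divergent from Dio3, an imprinted gene for the enzyme that inactivates thyroid hormone. Dio3os overlaps 1 other row on the same strand, and reads in the shared stretch count for both rows. In liver it ranged from 0.781 to 2.12 RPKM on the TS, with a median of 1.12, and from 0.0308 to 0.20 on the NTS, with a median of 0.0930, a log2 ratio of 3.62 ± 0.15 (adjusted p = 1.41e-18). Dio3 had a median of only 5.5 TS reads per liver library and a log2 ratio of 1.00 ± 0.33. Wdr83os, whose protein product is a small factor of the endoplasmic reticulum, had log2 ratios of 2.66 in kidney and 2.68 in liver. In each of the 12 libraries of both tissues its ratio was above that of Wdr83, by 2.73 ± 0.37 in kidney and 2.55 ± 0.34 in liver (SD). Slc7a6os (chr8:106200438-106210933, minus strand), convergent with the amino acid transporter gene Slc7a6, had log2 ratios of 3.09 in kidney and 3.58 in liver, against 1.57 and 0.38 for Slc7a6. Arhgap33os reached 3.32 ± 0.15 in liver, beside 1.61 ± 0.11 for Arhgap33. Cep83os, Appbp2os, Map2k3os, Dio3os, Wdr83os, Slc7a6os and Arhgap33os kept their surplus in both tissues when the strands were scaled separately, while Slc7a6 and Arhgap33 in liver then fell below 0.

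Further members without an opposite-strand row and with a surplus of TS reads in both tissues had log2 ratios, in kidney and then in liver, of 2.37 and 3.02 (Atad3aos), 2.34 and 2.87 (Ccpg1os), 2.87 and 2.98 (Epb41l4aos), 2.63 and 3.17 (Etaa1os) and 2.34 and 2.80 (Rab26os). With the strands scaled separately, Atad3aos (0.22, adjusted p = 0.0848), Ccpg1os (0.18, 0.121) and Rab26os (0.24, 0.287) lost the call in kidney. Lower ratios, which fell below 0 in at least 1 tissue when the strands were scaled separately, were those of Fam120aos (1.21 and 1.27), Foxd2os (1.82 and 1.61), Mkln1os (1.74 and 1.55), Smc2os (1.45 and 1.32), Stamos (1.35 and 1.42), Wt1os (1.56 and 0.48) and Fbxl12os (0.20 and 0.67). Wt1os is divergent from Wt1, a transcription factor gene of the kidney's podocytes. Dgkeos did not pass in kidney (0.25) and passed in liver (0.74), but was not called by the interaction test of strand and tissue given below. Ttc39aos1 had fewer TS reads in kidney (-0.47) and more in liver (0.78).

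Some members free of opposite-strand rows had about as many NTS as TS reads. They are named after eye and forebrain transcription factor genes (Six3, Vax2 and Otx2), after Dbh, an enzyme of noradrenaline synthesis, and after Ptgs2, an inducible cyclooxygenase. Six3os1, Dbhos, Ptgs2os and 2 rows of Vax2os did not pass the test in either tissue, with log2 ratios between -0.04 and 0.20 in kidney and between -0.38 and 0.14 in liver. Otx2os1 had 75.3 TS and 68.5 NTS reads per kidney library on average, a log2 ratio of 0.13 that did not pass the test. Its ratio of 0.29 in liver did pass that strand test (adjusted p = 0.0143). The interaction test of strand and tissue given below did not call Otx2os1.

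A few members free of opposite-strand rows had fewer TS than NTS reads. Sox5os3 lies 463299 bases from the listed span of Sox5, which has 381144 bases, and a longer form of Sox5 was not examined. Sox5os3 had 17.0 TS and 95.9 NTS reads per kidney library, and 17.6 TS and 259.6 NTS reads per liver library. Its log2 ratio was -2.49 in kidney and -3.87 in liver. Chd3os had log2 ratios of -0.80 in kidney and -2.0 in liver, and Tbx3os2 -0.70 and -1.07. Foxl2os had -0.43 in kidney (adjusted p = 0.0144) and was not tested in liver.

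Members that overlapped an opposite-strand row showed the reverse. Of 99 tested in kidney, 19 had more TS reads and 60 fewer (median -0.74), and of 94 in liver 20 had more and 53 fewer (-0.53). Of the 43 members inside their sense gene, 3 had more TS reads and 32 fewer in kidney, and of 15 tail-to-tail members 4 had more and 11 fewer. Other rows enclosed by an opposite-strand row had a median of -0.67 in kidney, with 185 higher and 284 lower of 516. The most negative value of a member in kidney was that of Frs3os (chr17:47699969-47701996, minus strand), inside Frs3, an adaptor of fibroblast growth factor receptors. It held 0 to 7 TS reads and 69 to 234 NTS reads per kidney library, with medians of 2.5 and 149.5. NTS stood above TS in all 12, with a log2 ratio of -5.56 ± 0.16 (adjusted p = 4.47e-21). These NTS reads are also TS reads of Frs3, whose own ratio was 4.63 ± 0.08. Frs3os covers 2028 of the 9080 bases of Frs3.

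Zfhx2os (chr14:55073091-55075874, plus strand) lies inside Zfhx2, a zinc finger homeobox gene, and had the most negative ratio in liver. Its liver libraries held 0 to 4 TS reads and 193 to 509 NTS reads, a log2 ratio of -7.38 ± 0.18. In kidney it held 1 to 15 TS reads and 126 to 350 NTS reads, a log2 ratio of -4.72 ± 0.14. Alkbh3os1 overlaps the end of Alkbh3, a DNA and RNA dealkylase, and had log2 ratios of -4.94 ± 0.14 in kidney and -6.21 ± 0.18 in liver. The ratios of Ppifos and Fam219aos, also tail-to-tail, were -4.91 and -4.75 in kidney. Ube4bos3 reached -4.64 in kidney and -5.92 in liver, and Sorbs2os, inside the cytoskeletal adaptor gene Sorbs2, -5.25 in liver. Ppifos, Alkbh3os1, Ube4bos3 and Sorbs2os share their reads with the sense gene, whereas Fam219aos overlaps Fam219a by 1 base only. In all of these pairs the sense gene carried the surplus on its own TS, with log2 ratios from 2.41 (Sorbs2 in kidney) to 5.74 (Frs3 in liver).

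Set against its sense gene within each library, the antisense row had the lower ratio in all 12 kidney libraries in 80 of 129 pairs with at least 20 reads, the higher ratio in all 12 in 13, and no uniform order in 36. Liver gave 66, 15 and 28 of 109 pairs. The median difference of log2 ratios, antisense minus sense, was -2.16 in kidney and -2.10 in liver over all pairs. It was -0.28 and -0.15 for divergent pairs apart, against -4.23 and -5.44 for antisense rows inside the sense gene. Where the rows overlap, the shared reads enter both ratios with opposite sign. A low antisense ratio beside a high sense ratio therefore largely follows from the position of nested rows, and is no separate result. These per-library ratios carry a pseudocount of 0.5 reads and were not tested as a group. Hnf4aos, singled out after its values were seen, runs head-to-head with Hnf4a, the gene of a transcription factor of liver and kidney epithelium. It was above Hnf4a in every library, by 2.55 ± 0.34 in kidney and 1.42 ± 0.35 in liver (SD, n = 12 each). The rows overlap, with starts 34864 bases apart. TS reads of Hnf4aos in the shared stretch are also NTS reads of Hnf4a, which widens this difference. Hnf4aos had median TS levels of 1.43 RPKM in kidney and 2.15 in liver, and median NTS levels of 0.232 and 0.624. Rab26os stood 6.91 ± 0.86 above Rab26 in kidney and 7.66 ± 0.70 in liver. Rab26 itself had fewer TS than NTS reads, with mean log2 ratios of -4.42 and -4.90.

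For the antisense rows inside a sense gene, the reads of the sense gene outside the shared span follow by subtraction, so both strands can be compared inside and outside. In kidney 37 such pairs had at least 20 reads. The strand that is the TS of the antisense transcript had a higher density inside the span than in the rest of the sense gene in all 12 libraries in 8 pairs, and a lower one in 11 pairs. The strand that is the TS of the sense gene was denser inside in 6 pairs and sparser in 12. Liver gave 7 and 7 of 30 pairs for the antisense strand, and 9 and 11 for the sense strand. No row other than the sense gene lay over the antisense span on the opposite strand in any of these pairs. The median ratio of inside over outside density was 0.821 for the antisense strand and 0.928 for the sense strand in kidney, and 0.966 and 0.899 in liver. By these medians both strands held fewer reads per kilobase inside the antisense span than around it, with pairs in both directions. The pairs below were chosen for their densities after the values were seen, and none was tested.

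Hk1os (chr10:62340607-62349866, plus strand), inside the hexokinase gene Hk1, was the nested member with the largest surplus of TS reads. Its TS ranged from 0.756 to 0.999 RPKM in kidney, with a median of 0.867, and its NTS from 0.0248 to 0.143, with a median of 0.0946. The strands did not overlap, and the log2 ratio was 3.12 ± 0.11 in kidney (adjusted p = 9.12e-19) and 2.04 in liver. Inside the Hk1os span of kidney the antisense strand had 0.874 ± 0.074 RPKM, against 0.165 ± 0.028 in the rest of Hk1 (SD, n = 12), 5.29 times as much. The sense strand had 0.0959 RPKM inside and 1.31 RPKM outside. Hk1os covers 8.34% of Hk1 and held 31.9% of its NTS reads, and without that span the log2 ratio of Hk1 over the summed kidney reads was 2.95, compared with 2.41 over the whole gene.

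Bach2os (chr4:32559680-32571662, minus strand) lies inside Bach2, which encodes a transcriptional repressor of lymphocytes. In liver the antisense strand had 0.543 ± 0.114 RPKM inside its span and 0.0472 ± 0.0073 outside, 11.5 times as much, a difference seen in 12 of 12 libraries. The span covers 7.10% of Bach2 and held 47.1% of its NTS reads in liver, and the log2 ratio of Bach2 over the summed reads was 2.80 with it and 3.53 without. In kidney the same span had 0.0600 RPKM inside and 0.0413 outside, higher inside in 10 of 12 libraries. Tbc1d22bos (chr17:29578816-29596305, minus strand), inside the Rab GTPase-activating protein gene Tbc1d22b, had the larger contrast in kidney. Its antisense strand had 0.591 RPKM inside and 0.191 outside in kidney, and 0.0580 inside and 0.0602 outside in liver. In kidney this span held 58.0% of the NTS reads of Tbc1d22b, so that the log2 ratio of Tbc1d22b was 3.07 with the span and 3.83 without.

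Rab11fip4os1 and Rab11fip4os2 lie inside Rab11fip4, which encodes an effector of Rab GTPases in vesicle transport, and differed from each other. Within Rab11fip4os1 the sense strand was sparser than around it, with 0.0998 RPKM inside and 1.19 outside in kidney and 0.0516 inside and 0.665 outside in liver. Within Rab11fip4os2 the sense strand was denser than around it, with 2.96 RPKM inside and 0.930 outside in kidney and 1.87 inside and 0.507 outside in liver. The antisense strand of Rab11fip4os2 was also denser inside, by 1.45 times in kidney and 3.07 times in liver. Plxna4os1, inside the semaphorin receptor gene Plxna4, had 0.226 RPKM on the antisense strand inside and 0.0380 outside in liver. The strongly negative members Frs3os and Zfhx2os had antisense-strand densities below those of the surrounding gene, at 0.0697 inside and 0.177 outside for Frs3os in kidney and 0.0315 inside and 0.0936 outside for Zfhx2os in liver.

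**Figure D2:**
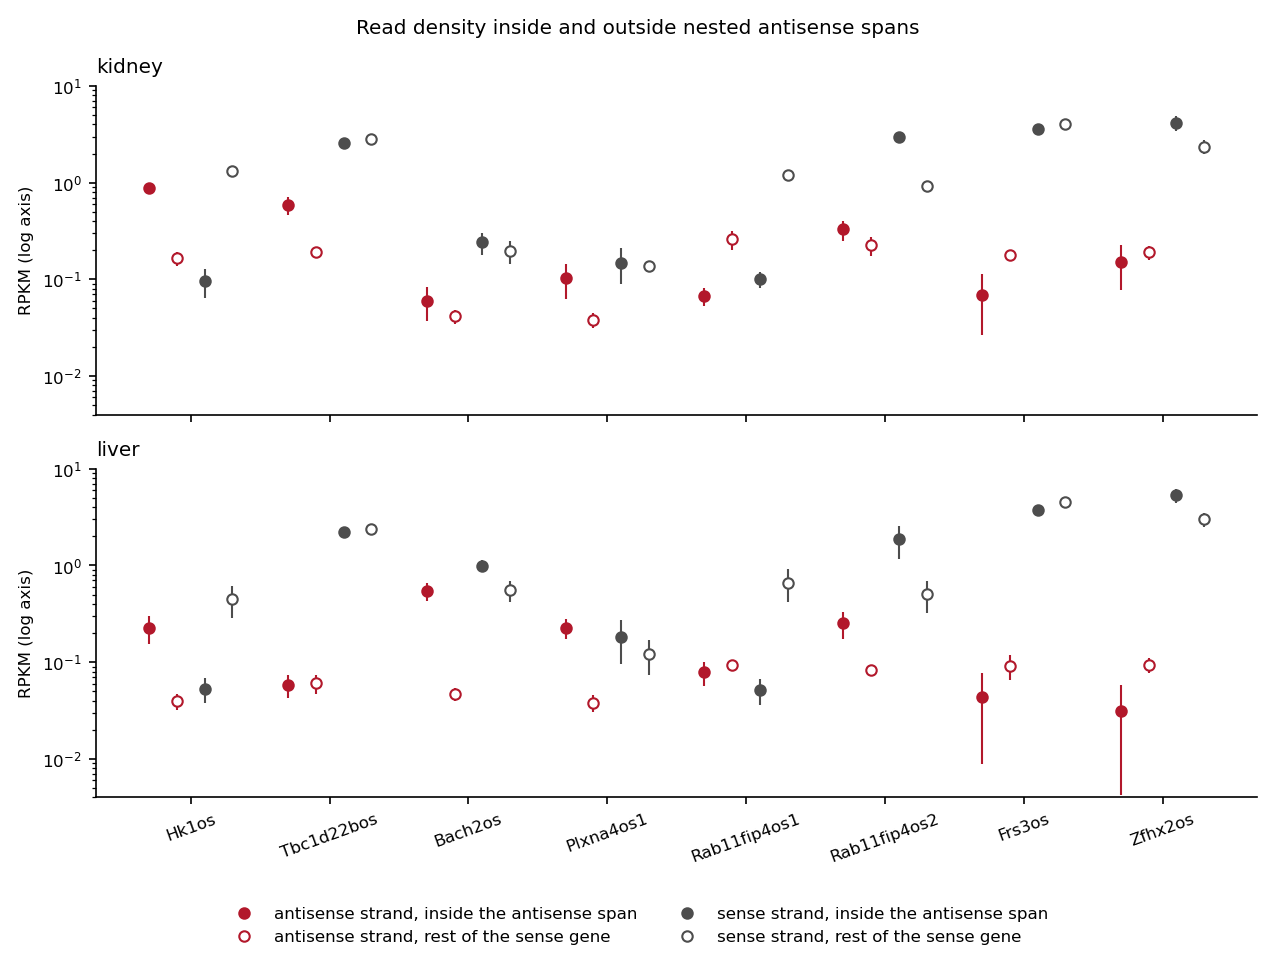
Read density in RPKM (log axis) on the antisense strand (red) and the sense strand (grey), inside the antisense span (filled) and in the rest of the sense gene (open), for 8 antisense rows inside their sense gene; points are means over 12 libraries and bars the SD, in kidney (top) and liver (bottom). Hk1os exceeds its surroundings on the antisense strand in both tissues, Tbc1d22bos in kidney, and Bach2os and Plxna4os1 most in liver.

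TS reads of 95 of 125 members tested differed between tissues, 70 higher in kidney and 25 lower, with time as a factor (edgeR's quasi-likelihood test, adjusted p under 0.05). Of all 19217 rows tested 75.1% differed, 42.3% higher and 32.8% lower. The median log2 ratio of kidney over liver was 0.33 for the members, 0.17 for the sense genes and 0.06 for all rows. A tissue is a mixture of cells, and fewer cells of a type cannot be told apart here from less repair per cell.

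Emx2os (chr19:59425104-59458635, minus strand) differed most. It is divergent from Emx2, a homeobox gene needed for kidney development. Its TS level ranged from 1.44 to 1.92 RPKM in kidney, with a median of 1.68, against 0.0197 to 0.0910 in liver, with a median of 0.0306. Every kidney library was above every liver library, and the log2 difference was 5.57 ± 0.14 (SE, n = 12 each, adjusted p = 2.42e-20). The highest liver value was that of the first ZT4 library, which was also the one with the highest kidney tubule marker level; without that library the log2 difference was 5.81. Emx2 showed 4.13 RPKM in kidney and 0.0641 in liver (medians), a log2 difference of 5.72 ± 0.14. Lhx1os (chr11:84525660-84535831, plus strand) starts 126 bases from Lhx1, a LIM homeobox gene of the early nephron. Its TS ranged between 2.28 and 3.27 RPKM in kidney and between 0.0203 and 0.187 in liver, with medians of 2.63 and 0.0483. The groups did not overlap, and the log2 difference was 5.42 ± 0.17 (adjusted p = 1.27e-18), beside 4.84 ± 0.11 for Lhx1. The strand ratio moved with the level: Emx2os had a log2 ratio of 3.19 in kidney and 0.38 in liver, and Lhx1os 3.10 in kidney and -0.07 in liver. Neither liver ratio passed the test. Without the first libraries of liver ZT0 and ZT4, that of Lhx1os was -0.43 (adjusted p = 0.0321), and that of Emx2os passed when any 1 of 5 libraries was left out, among them the first of ZT0 (0.44, adjusted p = 0.0360).

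Among members with at least 20 reads, the next largest differences towards kidney were those of Slc6a19os, Hoxd3os1, Hoxb5os and Tbc1d22bos. Slc6a19os starts within the head of Slc6a19, the neutral amino acid transporter of the proximal tubule, with 0.418 to 0.755 RPKM on the TS in kidney against 0.0199 to 0.0437 in liver. Its log2 difference was 4.21 ± 0.14, and that of Slc6a19 was 4.52 ± 0.10. Hoxd3os1 had 0.780 to 1.22 RPKM on the TS in kidney against 0.0175 to 0.0844 in liver, and Hoxb5os 1.97 to 2.41 RPKM in kidney against 0.111 to 0.390 in liver. Their log2 differences were 3.86 ± 0.12 and 3.46 ± 0.12, beside 5.54 ± 0.16 for Hoxd3 and 2.76 ± 0.16 for Hoxb5, which are homeobox genes of body patterning. None of these ranges overlapped between tissues. Tbc1d22bos departed from its sense gene: it had 0.418 to 0.837 RPKM in kidney against 0.0384 to 0.0908 in liver, a log2 difference of 3.27 ± 0.13, while that of Tbc1d22b was 0.18 ± 0.04.

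The largest difference towards liver was that of Srrm4os (chr5:116438722-116465487, plus strand), whose row lies almost wholly over the end of Srrm4, the gene of a splicing regulator known from neurons. It had 0.0214 to 0.0810 RPKM on the TS in kidney, with a median of 0.0416, against 0.547 to 1.38 in liver, with a median of 1.10. Liver libraries were all above kidney libraries, with a log2 difference of -4.65 ± 0.16 (adjusted p = 5.03e-18), beside -2.88 ± 0.07 for Srrm4. St8sia3os had a log2 difference of -3.36 ± 0.09, beside -1.0 ± 0.18 for the sialyltransferase gene St8sia3. On the TS it lay between 0.00839 and 0.0227 RPKM in kidney and between 0.111 and 0.251 in liver, and on the NTS between 0.00768 and 0.0214 in kidney and between 0.0166 and 0.0280 in liver. The level that separated the tissues was thus on the TS of the antisense row. Bach2os had a difference of -3.20 ± 0.14, with 0.0287 to 0.106 RPKM in kidney against 0.429 to 0.799 in liver, and Bach2 one of -1.60 ± 0.13.

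Ctcflos (chr2:173124749-173133204, plus strand) is named after Ctcfl, a testis-expressed relative of the insulator protein CTCF. The TS level lay between 0.260 and 0.702 RPKM in kidney and between 0.824 and 2.58 in liver, with medians of 0.350 and 1.53. The tissues did not overlap, with a log2 difference of -2.12 ± 0.12 (adjusted p = 5.81e-14), beside -1.96 ± 0.17 for Ctcfl. Tnk2os, inside the tyrosine kinase gene Tnk2, had a log2 difference of -1.94 ± 0.20, beside -1.37 ± 0.05 for Tnk2. Plet1os went against its sense gene. It had 0.20 to 0.344 RPKM on the TS in kidney against 0.602 to 0.953 in liver, a difference of -1.62 ± 0.08, and Plet1, an epithelial surface protein gene, had 0.896 to 1.57 RPKM in kidney against 0.327 to 0.484 in liver, a difference of 1.55 ± 0.08. The tissues did not overlap for either row.

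**Figure D3:**
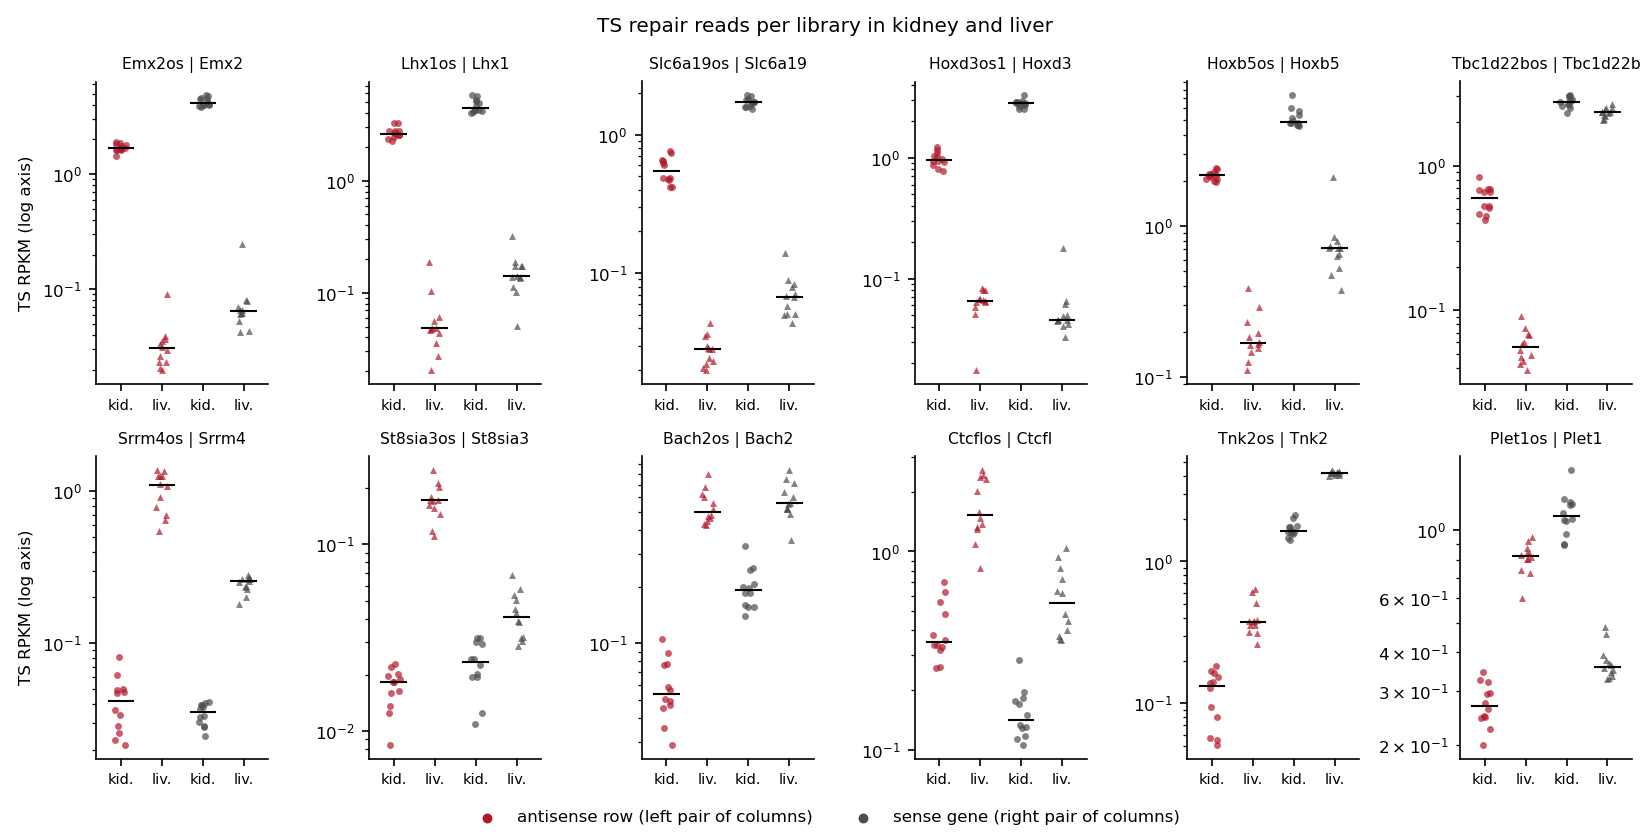
TS level in RPKM (log axis) in each of the 12 kidney and 12 liver libraries for the 6 members with the largest difference towards kidney (top) and the 6 towards liver (bottom), with the antisense row in red and its sense gene in grey; lines are medians. Kidney and liver do not overlap for any of the 12 antisense rows, and Plet1os and Plet1 run in opposite directions.

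Across pairs the tissue difference of the antisense row went with that of the sense gene. Over 124 pairs with both rows tested, Spearman's rho of the log2 differences was 0.597 and Pearson's r 0.734, as a description, since the points share libraries and, where the rows overlap, lie on the same stretch of DNA. Both rows passed the test in 81 pairs, in the same direction in 61 and in opposite directions in 20. Among the 33 divergent pairs apart, rho was 0.775 and r 0.896, with 17 pairs in the same direction and 4 opposed. The opposed divergent pairs had small differences, with 0.26 for Cep83os and -0.17 for Cep83, -0.15 for Appbp2os and 0.16 for Appbp2, 0.19 for Fam120aos and -0.14 for Fam120a, and 0.28 for Ino80dos and -0.20 for Ino80d. The opposed pair with the largest antisense difference was Zfhx2os at 2.23 ± 0.39, beside Zfhx2 at -0.40 ± 0.06. The value of Zfhx2os rests on the few TS reads per library given above. A change on 1 row with little on the other was seen for Med9os, at 1.99 ± 0.21 beside 0.10 ± 0.03 for Med9, whose product is a subunit of Mediator.

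**Figure D4:**
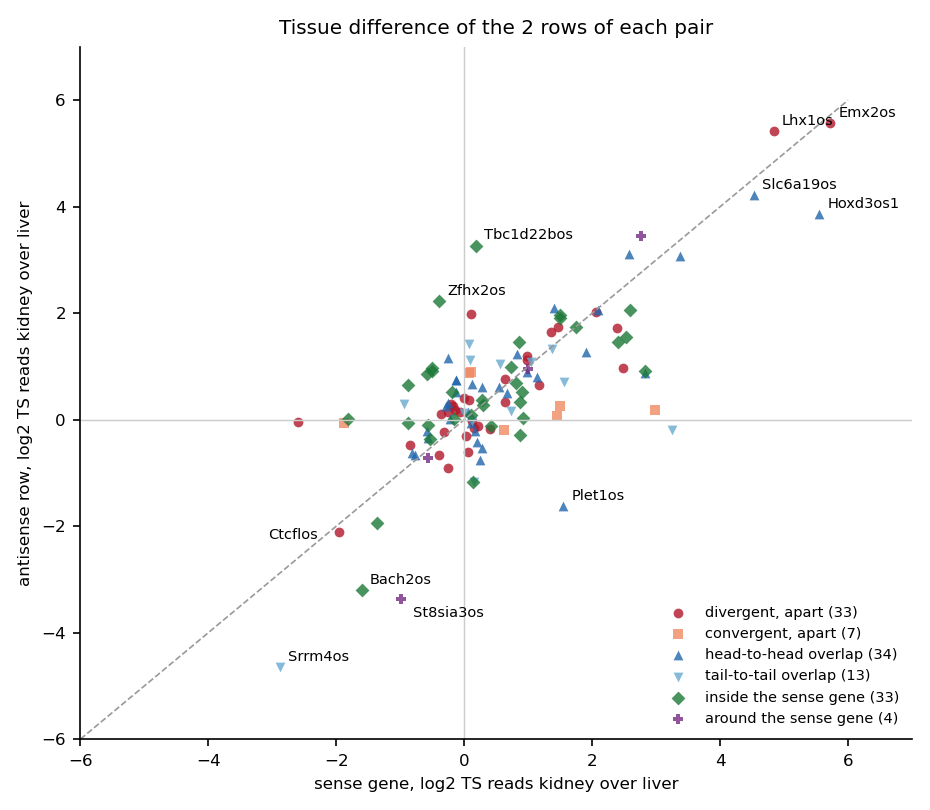
Log2 difference of TS reads, kidney over liver, of the antisense row (vertical axis) against its sense gene (horizontal axis) for 124 pairs, with symbols by position of the pair; the dashed line marks equal differences. Emx2os, Lhx1os, Slc6a19os and Hoxd3os1 lie at the upper right with their sense genes, Srrm4os at the lower left, and Plet1os in the quadrant of opposite directions.

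The strand ratio itself differed between tissues for 72 of 141 members tested, 35 with a higher ratio in kidney and 37 with a lower one (interaction of strand and tissue, edgeR's quasi-likelihood test, adjusted p under 0.05). Of all 20001 rows 58.4% passed this test, 22.3% higher and 36.1% lower. With each strand scaled on its own the split was 44 higher and 26 lower of 149. Lhx1os had the higher ratio in kidney by 3.18 ± 0.25, Emx2os by 2.82 ± 0.22 and Plekhd1os by 2.56 ± 0.17. Plet1os had the lower ratio in kidney, by -3.20 ± 0.09, St8sia3os by -2.92 ± 0.16 and Ctcflos by -2.40 ± 0.14. Plekhd1os (chr12:80686375-80692466, minus strand) had a median of 0.774 RPKM on the TS and 0.542 on the NTS in kidney, against 0.174 on the TS and 0.727 on the NTS in liver. Its TS level thus differed with the tissue while its NTS level was 0.352 RPKM or more in every library of both.

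On the TS, 5 of 123 members passed the 24 h cosine test in kidney (edgeR's quasi-likelihood test, adjusted p under 0.05) and 9 of 104 in liver, against 14.7% and 15.5% of all rows tested. At an unadjusted p under 0.05 these counts were 15 and 19. On the NTS, 8 of 130 members passed in kidney and 7 of 112 in liver, against 2.54% and 3.73% of all rows. Sense genes gave 20 of 141 on the TS in kidney and 23 of 134 in liver. In kidney, libraries with the same replicate number deviated together across times, and with that number as a block 12 members passed on the TS (25.4% of all rows) and 32 on the NTS (8.37%). The kidney counts also rested on single libraries. Leaving out 1 library at a time gave 1 to 11 members on the TS, lowest without either library of ZT8 and highest without the second of ZT0. On the NTS it gave 0 to 23, lowest without the second library of ZT8 (21 at an unadjusted p under 0.05) and highest without the second of ZT0. Amplitudes below are on the log2 scale, from the mean to the peak, and times of peak are those of the fitted curve.

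Ctcflos passed in both tissues. Its TS level in liver was 0.824 and 1.48 RPKM at ZT0, 1.38 and 2.02 at ZT4, 2.42 and 2.37 at ZT8, 2.58 and 2.32 at ZT12, 1.30 and 1.57 at ZT16 and 1.33 and 1.09 at ZT20. The 4 libraries of ZT8 and ZT12 were above all others, and the amplitude was 0.57 ± 0.10 (SE) with a peak at 9.67 h (adjusted p = 0.00469). In kidney the highest libraries were those of ZT12, at 0.702 and 0.626 RPKM, and the lowest were 1 library of ZT0 and 1 of ZT20, at 0.260 and 0.262 RPKM. The amplitude there was 0.58 ± 0.10 with a peak at 12.1 h (adjusted p = 0.0058). Both TS calls of Ctcflos held whichever library was left out, with adjusted p up to 0.0202 in kidney and 0.0175 in liver. A test of any difference among the 6 times, which has more terms, called neither (adjusted p = 0.0826 in kidney and 0.0829 in liver). Ctcfl was also called in liver, with an amplitude of 0.65 ± 0.10, peaking at 10.2 h (adjusted p = 0.00267), and was not called in kidney (0.21 ± 0.15, adjusted p = 0.581). The NTS of Ctcflos also passed in liver, with an amplitude of 0.68 ± 0.11, peaking at 9.71 h. In liver the NTS of Ctcfl passed the cosine test too, with an amplitude of 0.43 ± 0.07, peaking at 9.38 h. Ctcfl had fewer TS than NTS reads in liver, with a log2 ratio of -0.26 that passed the strand test. The rows of Ctcflos and Ctcfl do not overlap, so these reads are not shared.

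Ttc39aos1 (chr4:109402279-109406257, minus strand), 843 bases from the start of Ttc39a, had the largest TS amplitude of a named member in liver, 0.76 ± 0.14 with a peak at 13.7 h (adjusted p = 0.0078). Its libraries were at 0.253 and 0.266 RPKM at ZT0, 0.278 and 0.306 at ZT4, 0.279 and 0.462 at ZT8, 0.417 and 0.747 at ZT12, 0.583 and 0.844 at ZT16 and 0.273 and 0.320 at ZT20. The highest library of all was 1 of ZT16, and the range of ZT12 overlapped those of ZT8 and ZT16. Ttc39a had an amplitude of 0.69 ± 0.08 with a peak at 13.2 h. Arhgap33os was at 0.569 and 0.630 RPKM at ZT0, 1.05 and 1.09 at ZT4, 1.49 and 1.52 at ZT8, 1.27 and 1.20 at ZT12, 0.766 and 0.709 at ZT16 and 0.848 and 0.806 at ZT20. Its libraries of 1 time lay close together, with an amplitude of 0.53 ± 0.09, peaking at 8.99 h (adjusted p = 0.00641), and Arhgap33 was not called (adjusted p = 0.617). Other TS rhythms in liver included those of Chn1os3 (amplitude 0.61, peak at 5.46 h), Pitpnm2os1 (0.45, 12.2 h) and Srrm4os (0.45, 6.88 h), and of Dlx4os and Sp3os with amplitudes of 0.42 or less. The call of Srrm4os was lost without any 1 of 7 libraries, among them the second of ZT20 (adjusted p = 0.0958). The test of any difference among the 6 times called Arhgap33os (adjusted p = 0.00775). That test did not call Ttc39aos1 (adjusted p = 0.0824), Chn1os3 (0.148), Pitpnm2os1 (0.0877) or Srrm4os (0.347).

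In kidney the TS rhythms were, besides Ctcflos, those of Atcayos (amplitude 0.53 ± 0.14, peak at 8.61 h), Igf2os (0.53 ± 0.12, 5.98 h), Arhgap27os3 (0.51 ± 0.12, 6.07 h) and Bcas3os2 (0.34 ± 0.09, 21.0 h). Igf2os is named after Igf2, an imprinted growth factor gene, and its highest library was the first of ZT8, at 0.332 RPKM. It had 0.173 and 0.218 RPKM at ZT0, 0.258 and 0.239 at ZT4, 0.332 and 0.254 at ZT8, 0.153 and 0.178 at ZT12, 0.205 and 0.123 at ZT16 and 0.101 and 0.127 at ZT20. Igf2 itself was called, with an amplitude of 0.46 ± 0.08, peaking at 7.31 h. Bcas3os2 had its lowest libraries at ZT8, 0.273 and 0.266 RPKM, and all others at 0.361 or above. Each of these 4 calls was lost without the second library of ZT8, with adjusted p of 0.227 for Atcayos, 0.0641 for Igf2os, 0.103 for Arhgap27os3 and 0.147 for Bcas3os2. Each was also lost without the first library of ZT8 and the second of ZT16, and some without libraries of ZT0, ZT4, ZT12 and ZT20.

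Where a member overlaps its sense gene, the NTS reads of the shared stretch are TS reads of that gene. Zfp85os spans 27577 bases around the 7335 of Zfp85, and Rab10os and Slc13a2os overlap only the end of their sense genes. In Zfp85os, Rab10os and Slc13a2os part of the NTS thus lies outside the sense gene. Rab11fip4os2 had the largest NTS amplitude of a named member in liver, 0.70 ± 0.11 with a peak at 22.3 h (adjusted p = 0.000685), and Rab11fip4 on its TS had 0.67 ± 0.11 with a peak at 22.7 h. The 4 libraries of ZT8 and ZT12 were at 0.971 to 1.32 RPKM on the NTS of Rab11fip4os2, and the 8 others at 1.42 to 2.92 RPKM. Sorbs2os (amplitude 0.36, peak at 19.5 h), Slc13a2os (0.45, 19.5 h) and Zfp85os (0.35, 20.4 h) had sense genes called on the TS with peaks at 19.2, 18.5 and 19.6 h. The liver call of Zfp85os was lost without the second library of ZT8 (adjusted p = 0.105), and that of Sorbs2os without that library or the first of ZT20 (0.0620 and 0.0505). All 8 kidney NTS rhythms peaked between 18.0 and 20.0 h, among them Plekhd1os (0.47 ± 0.10), Chd3os (0.47 ± 0.10), Acss2os (0.42 ± 0.09), Rab10os (0.41 ± 0.08), Zfp85os (0.37 ± 0.09) and Prkag2os1 (0.32 ± 0.07). Of the sense genes of these 6, Prkag2, a subunit of the energy sensor AMP-activated kinase, was called on its TS in kidney (0.27 ± 0.06, peak at 20.5 h). Without the second library of kidney ZT8 none of the 6 passed, with adjusted p from 0.0717 (Rab10os) to 0.259 (Zfp85os). Without the first of ZT20 all but Chd3os were lost, and other libraries of ZT4, ZT8, ZT12, ZT16 and ZT20 also cost calls. Zfp85os was lost with DESeq2 size factors too (adjusted p = 0.0539). The test of any difference among the 6 times called none of the 6, with adjusted p from 0.246 (Rab10os) to 0.449 (Zfp85os). Chd3os, Plekhd1os and, in liver, Sox5os3 (0.41, 16.9 h) overlap no listed opposite-strand row. Their NTS reads are thus shared with no listed span on the other strand. Whether unlisted transcripts, such as a longer form of Sox5, cover these rows was not tested.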

How the data were processed

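The deposited counts are whole numbers of XR-seq reads per gene span and strand, per the file headers, and the deposited RPKM values divide them by row length and library total. The genome build was mm10, per the submitters' processing notes. For the aligner, counter and annotation, names were not given in the sources used here. Per the labels, the library protocol also names ultraviolet lesions, which were not the agent of these mice. No column belonged to other samples. Rows with several symbols (154) or none (882) were left out of the 25239 rows; the latter held 2.76% of the TS reads. The tables drawn down to fewer reads were not used.

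Counts were tested with edgeR 4.0.16 (quasi-likelihood, TMM, filterByExpr) in R 4.3.3, with Benjamini-Hochberg adjustment over all rows tested. The strand ratio had the library as a block and 1 library size for both strands, the tissue difference had time as a factor, and rhythms used a cosine and a sine term with a 24 h period. Alternatives were strand-wise TMM, DESeq2 1.42.0 size factors and tests, no filter, any difference among times, the replicate number as a block, and each library left out. Leaving out the first libraries of liver ZT0 and ZT4 was added after seeing the data. Same-numbered libraries deviated together across times in kidney (15 of 15 correlations of deviations over 0.1, from 0.111 to 0.571). In liver this was weaker and mixed (8 of 15, from -0.2 to 0.379), so the block is given beside kidney rhythms. Between kidney and liver libraries of 1 time and number, 3 of 6 such correlations were over 0.1 (0.0249 to 0.313). The tissue test took them as unpaired, and with each such pair as a block 97 members passed.

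Members named were, among those with at least 20 reads, the 6 highest and 6 lowest strand ratios per tissue, the 6 largest tissue differences each way, up to 6 rhythms per tissue and strand by amplitude, and those without an opposite-strand row (1 named member is not reported here); others were chosen after their values were seen. Members and lists were chosen with earlier results of these data known. Densities outside a nested span are sense minus antisense counts per remaining base. Scripts were tested on simulated data. Counts limit precision where a member has few reads, and intervals and tests treat reads without molecular identifiers as independent.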

Additional observations from a re-analysis of the deposited data

Results flagged for a closer look

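Among members named for their strand ratio, for lying clear of opposite-strand rows or for calls on opposite sides of 0, the strand ratio of 24 differed between tissues by the tested interaction of strand and tissue (edgeR's quasi-likelihood test over all rows), 10 with the higher ratio in kidney and 14 with the lower. Values below are the kidney minus liver difference of the log2 ratio of TS over NTS.

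In 7 of them the ratio passed its own test on opposite sides of 0. Plet1os stood at -1.52 in kidney and 1.68 in liver, a difference of -3.20, and Tmem150cos at -1.28 and 0.64, a difference of -1.92. Ttc39aos1 differed by -1.25, Rab11fip4os1 by -1.20 (-0.61 in kidney and 0.60 in liver), Plxna4os1 by -0.92 (-0.55 and 0.37) and Zfp85os by -0.38 (-0.16 and 0.22). Plekhd1os, at 0.55 in kidney and -2.01 in liver, differed by 2.56. The sides of 0 rest on 1 library size for both strands: with each strand scaled on its own, all 7 were below 0 in both tissues, and in liver Plet1os was at -0.47, Tmem150cos at -1.48, Rab11fip4os1 at -1.53, Plxna4os1 at -1.77 and Zfp85os at -1.93.

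The homeobox neighbours Lhx1os and Emx2os had the higher ratio in kidney, by 3.18 and 2.82. Others with the higher ratio in kidney were Zfhx2os (2.66), Sorbs2os (1.93), Sox5os3 (1.37), Alkbh3os1 (1.28), Chd3os (1.20), Hk1os (1.08) and Wt1os (1.08). Of these, Zfhx2os, Sorbs2os, Sox5os3, Alkbh3os1 and Chd3os had fewer TS than NTS reads in both tissues. The ratio of Zfhx2os rests on few TS reads in both.

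Ctcflos had the lower ratio in kidney, by -2.40, and Ppifos by -1.29. Smaller differences were those of Map2k3os (-0.76), Dio3os (-0.74), Atad3aos (-0.65), Ccpg1os (-0.53), Slc7a6os (-0.49) and Fbxl12os (-0.47). Apart from Ppifos, each of these had a positive ratio in both tissues.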

How the results depend on the processing

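The tissue differences of TS reads kept their direction and their side of the threshold for all 24 named rows under every alternative run, and the member count was 91 to 97 with 1 library left out (67 to 71 higher, 24 to 26 lower in kidney). Strand calls numbered 105 to 110 in kidney (40 to 44 higher, 63 to 67 lower), 99 to 104 in liver (44 to 48, 55 to 58) and tissue differences of the ratio 70 to 78 (34 to 38, 35 to 40). Fbxl12os in kidney was lost with DESeq2's Wald test (0.20) and without any 1 of 8 libraries, Foxl2os with the Wald test (-0.45), and Otx2os1 in liver without the first library of ZT16.

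With each strand scaled on its own, 14 members were higher and 128 lower in kidney, and 15 and 126 in liver, since this centres the typical row near 0. Turned in kidney were Emx2 (-0.022), Ctcflos (-1.77), Dgkeos (-1.84), Fam120aos (-0.94), Fbxl12os (-1.97), Foxd2os (-0.31), Med9os (-0.73), Mkln1os (-0.45), Otx2os1 (-2.03), Plekhd1os (-1.62), Ptgs2os (-2.04), Six3os1 (-2.01), Smc2os (-0.68), Stamos (-0.79), Vax2os (-1.92 and -1.94) and Wt1os (-0.58). Turned in liver were Slc7a6 (-1.76), Arhgap33 (-0.53), Dbhos (-1.98), Dgkeos (-1.37), Emx2os (-1.75), Fam120aos (-0.87), Fbxl12os (-1.46), Foxd2os (-0.52), Mkln1os (-0.60), Otx2os1 (-1.85), Six3os1 (-2.01), Smc2os (-0.80), Stamos (-0.71), Ttc39aos1 (-1.35), Vax2os (-2.09) and Wt1os (-1.65).

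Rhythm counts moved most. With the replicate number as a block, 12 members passed on the TS and 32 on the NTS in kidney. In liver, where same-numbered libraries deviated together more weakly, 13 and 12 passed. The block, with time, left the strand calls at 109 and 96 and the tissue calls at 97. Any difference among the 6 times (edgeR) gave 0 on the TS and 0 on the NTS in kidney, with 7 and 23 at an unadjusted p under 0.05, and 1 and 4 in liver. Without the filter NTS counts were 28 in kidney and 14 in liver, where DESeq2's likelihood ratio test gave 12 and leaving out the first libraries of ZT0 and ZT4 gave 18. Leaving out 1 library gave 1 to 11 (TS) and 0 to 23 (NTS) in kidney, where every library but the first of ZT0 moved the NTS count by over 1.5 times, and 6 to 13 (TS) and 4 to 14 (NTS) in liver, with 14 without the first of ZT0 and 4 without the second of ZT8. The causes were not tested. Depth limits the 26 members under 20 reads.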
